A study of Mus musculus with 36 samples.

Results

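The Ifit genes encode interferon-induced proteins with tetratricopeptide repeats, and 3 of them, Ifit1, Ifit2 and Ifit3, were followed here in newly transcribed RNA of mouse NIH-3T3 fibroblasts. They were picked by gene symbol, and this choice was made with earlier results of these data known. Each had 1 probe set with that single symbol (NCBI gene IDs 15957, 15958 and 15959), so 3 of the 9549 genes tested are described. Transcripts made during a set window took up 4-thiouridine (4sU), a uridine analogue added to the medium, and the RNA carrying it was hybridised to 36 Affymetrix arrays. The 12 groups crossed 3 treatments with 4 labelling windows, 3 arrays each. All cells received fresh medium, which held mock, IFN alpha at 100 U/ml or IFN gamma at 100 U/ml. The windows, counted from that change of medium, were 0-30, 30-60 and 150-180 min with 500 µM 4sU, and 0-60 min with 200 µM. The labels number the arrays of a group without saying that they came from separate cultures, so p-values measure the spread between arrays, which may be technical.

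As background, IFIT1 binds viral RNA whose cap lacks 2'-O methylation and keeps it from being translated. IFIT2 and IFIT1 both bind the translation initiation factor eIF3, and IFIT3 is a partner of IFIT1 in human cells and a link to the kinase TBK1. Type I interferons such as IFN alpha act through ISGF3, a complex that holds Stat2 and Irf9 and binds interferon-stimulated response elements (ISRE). Type II interferon, IFN gamma, acts mainly at gamma-activated sequences (GAS), and Irf1 made in response can bind ISRE-like sites.

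The promoters of the 3 genes are shown because they differ in the ISRE core. They come from RefSeq, build GRCm38.p6, whose table holds 300 bases around each annotated start, 250 of them upstream. All 3 genes lie on the plus strand of chromosome 19. Printed are the bases from -170 to -21 of each start, 5' to 3' on the plus strand: chr19:34640719-34640868 for Ifit1, chr19:34583359-34583508 for Ifit3, and for the 2 annotated starts of Ifit2 chr19:34550524-34550673 and chr19:34550918-34551067. Capitals mark each match to the ISRE core GAAANNGAA on either strand (TTCNNTTTC on the other).
Ifit1: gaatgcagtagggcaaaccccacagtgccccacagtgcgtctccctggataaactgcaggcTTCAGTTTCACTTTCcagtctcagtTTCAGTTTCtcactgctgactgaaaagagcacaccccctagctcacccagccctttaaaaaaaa
Ifit3: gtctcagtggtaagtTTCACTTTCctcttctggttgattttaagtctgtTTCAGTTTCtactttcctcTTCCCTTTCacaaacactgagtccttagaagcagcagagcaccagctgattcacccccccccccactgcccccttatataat
Ifit2, first start: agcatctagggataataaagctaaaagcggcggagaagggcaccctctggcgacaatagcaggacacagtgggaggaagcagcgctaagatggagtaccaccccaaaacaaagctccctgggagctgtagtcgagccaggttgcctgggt
Ifit2, second start: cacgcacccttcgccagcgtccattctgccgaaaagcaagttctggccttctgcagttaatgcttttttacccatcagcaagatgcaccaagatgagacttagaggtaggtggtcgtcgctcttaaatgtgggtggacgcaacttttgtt

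Over the whole 300 bases, Ifit1 held 3 matches to the ISRE core, the first 2 of which overlap and run from -109 to -95, with the third from -84 to -76. Ifit3 held 3 separate matches, from -155 to -147, -121 to -113 and -102 to -94. Neither window of Ifit2 held one, which says only that these letters are not in these windows. Ifit2's first window held 1 match to the GAS pattern TTCNNNGAA, starting at -241, and no window of Ifit1 or Ifit3 held any. Of 32851 RefSeq windows of the same length, 8.56% held the ISRE core and 8.3% the GAS pattern. The promoter of Ifit3b, a neighbouring copy of Ifit3, was 94.5% identical to that of Ifit3 over 274 aligned positions, with 3 matches at the same spacing. A match is a description of the letters and not of binding.

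**Figure D1:**
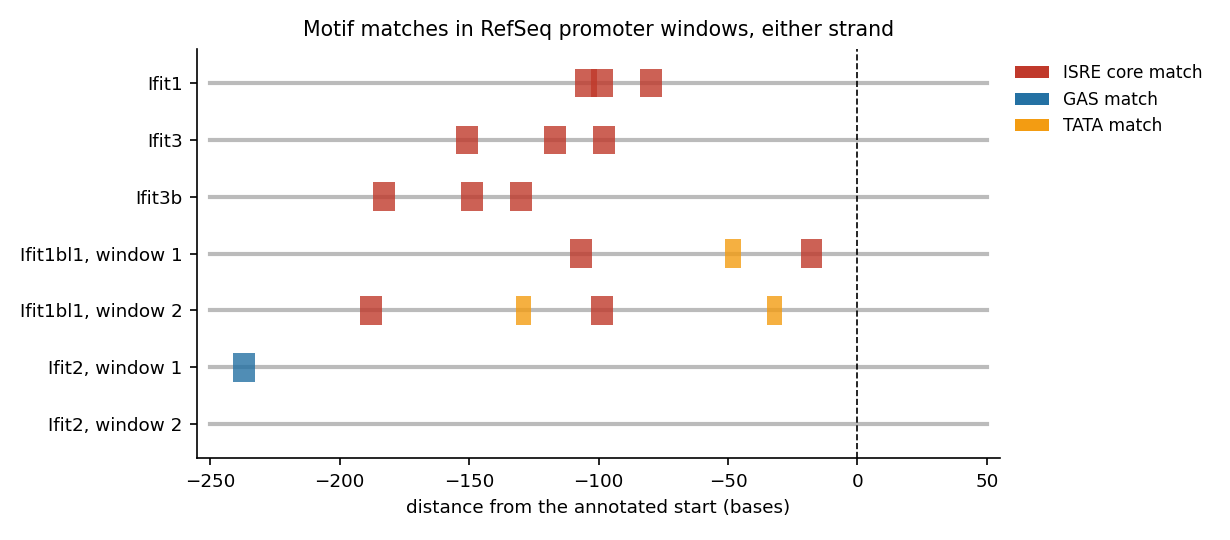
Matches to 3 motifs on either strand in RefSeq promoter windows, by distance in bases from the annotated start (dashed line). Ifit1 and Ifit3 each have 3 ISRE core matches upstream, as has Ifit3b, while the 2 Ifit2 windows have none and 1 GAS match between them.

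Values are log2 expression values that the authors made with GCRMA, a background-correcting normalization for Affymetrix arrays, and each probe has its own scale, so levels are compared within a gene. A gene was tested where it passed log2 4 in at least 3 arrays. Differences are log2 with the standard error (SE) of a limma fit over all 36 arrays, and "called" means that the two-sided p, adjusted by Benjamini-Hochberg across all 9549 genes, was under 0.05. Ifit1 passed log2 4 in 11 of 12 mock arrays, Ifit2 in 12 and Ifit3 in 2. For Ifit3 a fold over mock is therefore taken against background, not against a level that was measured. Ifit3 passed the filter through its interferon arrays (19 of 24 above log2 4). Its calls, adjusted p and ranks below are therefore a description. The fibroblast markers were well expressed, with 7 of 7 above log2 4 and a median of 12.06. Of the markers of other cell types, Cd14 alone of 7 for macrophages, and Bst2 and Tcf4 of 5 for plasmacytoid dendritic cells, passed it, and none of 4 epithelial or 4 endothelial ones did. Arrays of a group correlated at 0.970 to 0.995 in the 30 min windows and at 0.910 to 0.987 in the 0-60 min window, where mock array 1 also stood apart by its Gapdh 3' minus 5' signal (2.67, against -0.42 to 0.25 in the other 8 arrays).

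Mock cells were not at the same Ifit1 level in every window. Mock Ifit1 read 7.40, 7.24 and 7.26 in the 0-30 min arrays, 3.72, 4.34 and 4.09 at 30-60 min, and 7.03, 6.74 and 6.14 at 150-180 min. The 30-60 min arrays were the lowest, with no overlap with either other window. The level fell by 3.25 ± 0.50 (SE) on the log2 scale from 0-30 to 30-60 min (9.49-fold, adjusted p = 2.6e-06), and was 2.59 ± 0.50 higher at 150-180 than at 30-60 min (6-fold, adjusted p = 5e-05). The 30-60 min arrays lay around the filter, so the folds depend on the treatment of low values: after adding 16 to the linear values they were -2.41 (adjusted p = 3.4e-05) and 1.83 (adjusted p = 0.00073). These windows differed for most genes: 60.9% of tested genes were called in either direction in the first step, with a median difference of -0.52 over all genes, and 64.1% in the second, with a median of 0.55. Ordered from the most positive difference, Ifit1's drop ranked 9543 of 9549, and with the arrays shifted to a common median it was -2.69 (adjusted p = 5.9e-05) and the later gain 2.01 (adjusted p = 0.0012). The spike-in control bioC moved with the windows too, with a mean of 7.14 at 0-30, 9.00 at 30-60, 8.64 at 0-60 and 6.80 at 150-180 min, and its part in the mock levels was not tested.

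Ifit2 kept a mock level well above the filter throughout. Its mock arrays read 7.88, 8.32 and 8.24 at 0-30 min, 8.01, 7.75 and 7.84 at 30-60 min, and 8.33, 8.30 and 7.96 at 150-180 min, and these ranges overlap. No step was called (-0.28 ± 0.20, adjusted p = 0.23, and 0.33 ± 0.20, adjusted p = 0.15), and with the arrays shifted to a common median both turned, to 0.29 and -0.25, so their direction depends on the scaling. Mock Ifit3 lay at 4.00, 3.75 and 3.77 at 0-30 min, at 2.93, 2.78 and 3.17 at 30-60 min and at 3.97, 3.69 and 3.83 at 150-180 min. These are all at or under the filter, and the steps of -0.88 ± 0.40 (adjusted p = 0.059) and 0.87 ± 0.40 (adjusted p = 0.06) were not called. Between 150-180 and 0-30 min no member was called, against 9.70% of genes, with differences of -0.66 for Ifit1, 0.05 for Ifit2 and -0.01 for Ifit3.

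In the 0-60 min window, mock Ifit1 read 5.26, 7.89 and 6.49 in arrays 1, 2 and 3, a wider range than in any other mock window, so its mean of 6.55 ± 1.32 (SD, n = 3) is loosely set. Mock Ifit2 read 7.88, 8.89 and 8.94 there, and mock Ifit3 4.04, 4.63 and 3.84. Against 0-30 min no member was called (Ifit1 -0.75 ± 0.50, Ifit2 0.43 ± 0.20, Ifit3 0.33 ± 0.40), while 35.4% of genes were. Without array 2, mock Ifit1 was lower than at 0-30 min (-1.42, adjusted p = 0.025), and without array 1 mock Ifit2 was higher by 0.77 (adjusted p = 0.00064). The 4sU concentration also differed between these windows and cannot be told apart from the labelling time.

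**Figure D2:**
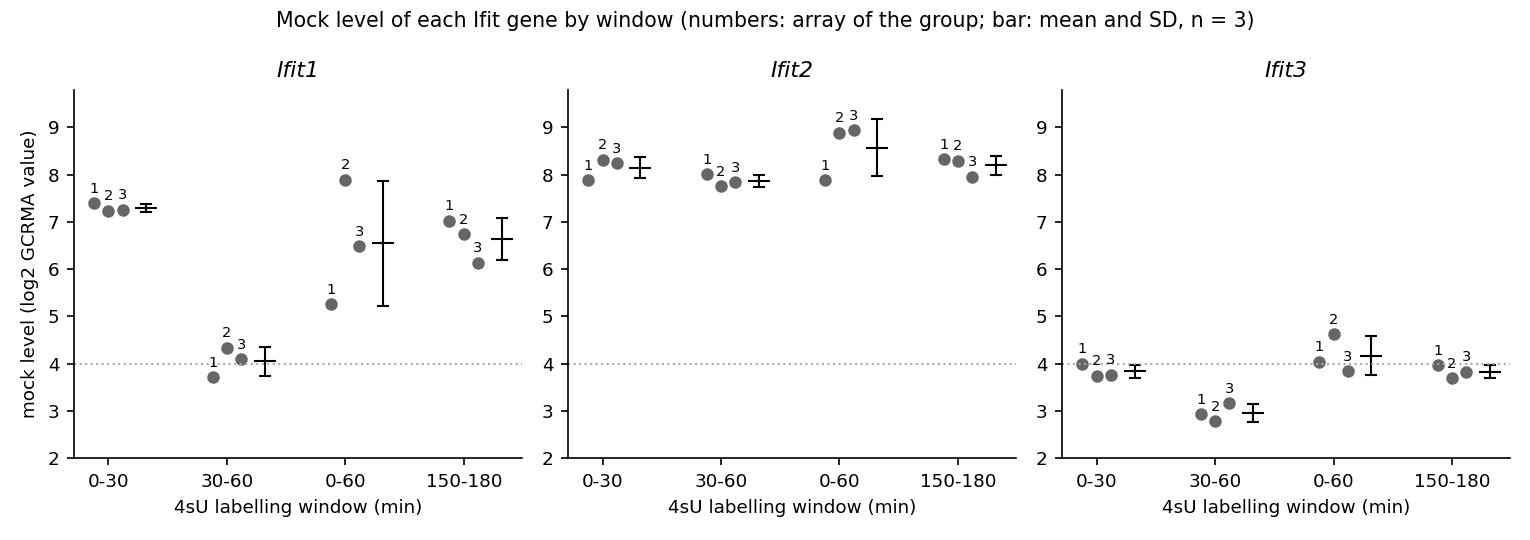
Mock level of each Ifit gene (log2 GCRMA value) in the 4 labelling windows, with numbered points for the 3 arrays, bars for mean and SD, and a dotted line at the log2 4 filter. Ifit1 drops to a mean of 4.05 at 30-60 min from 7.30 at 0-30 min, Ifit2 stays between 7.75 and 8.94, and Ifit3 stays near or under the filter.

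IFN alpha raised Ifit1 from the first window on. At 0-30 min its IFN alpha arrays read 12.26, 11.14 and 11.51 against 7.40, 7.24 and 7.26 in mock, and the groups did not overlap. The difference was 4.34 ± 0.50 (20.2-fold, adjusted p = 7.2e-07). Ifit3 read 8.96, 7.69 and 8.22 against 4.00, 3.75 and 3.77, a difference of 4.45 ± 0.40 (21.8-fold over background, adjusted p = 4.9e-09, and 3.44 after adding 16). Ifit2 read 8.45, 8.30 and 8.54 against 7.88, 8.32 and 8.24, and these groups overlapped (0.29 ± 0.20, adjusted p = 1). So 2 of the 3 genes were called in a window where 0.377% of all genes were called as higher. In pooled cells, more cells transcribing a gene cannot be told apart from more transcript per cell.

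At 30-60 min all 3 genes were called, against 2.40% of genes. Ifit1 read 12.63, 13.30 and 13.16 with IFN alpha against 3.72, 4.34 and 4.09 in mock. Its difference of 8.98 ± 0.50 (504-fold, adjusted p = 4.7e-15) ranked 1 of 9549, with the mock level at the filter. Ifit3 followed at rank 2, given as a description since its interferon arrays admitted it. It read 11.06, 10.58 and 11.35 against 2.93, 2.78 and 3.17, or 8.03 ± 0.40 (262-fold over background, adjusted p = 3.8e-16). Ifit2 reached 9.96, 9.82 and 10.10 against 8.01, 7.75 and 7.84, with no overlap, at 2.09 ± 0.20 (4.26-fold, adjusted p = 1.6e-09). After adding 16 to the linear values, which damps low levels, Ifit1 stood 8.0 and Ifit3 6.43 above mock, so the size of these folds is loosely set. Whether the responses of the 3 genes differ in size was not tested, since each probe has its own scale.

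At 150-180 min the IFN alpha arrays were closely spaced. Ifit1 read 13.11, 13.05 and 13.08, and its difference from mock was 6.45 ± 0.50 (87.1-fold, adjusted p = 9.1e-12). Ifit3 read 12.04, 12.16 and 12.15, the highest of its 12 groups, at 8.29 ± 0.40 above mock (313-fold over background, adjusted p = 7.3e-17, and 7.20 after adding 16). Ifit2 read 10.42, 10.31 and 10.19, also its highest group, at 2.11 ± 0.20 (4.33-fold, adjusted p = 8.4e-10). All 3 were called, against 2.58% of genes.

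In the 0-60 min window all 3 were called as higher too, against 1.91% of genes. Ifit1 read 12.16, 13.12 and 11.84 with IFN alpha (5.83 ± 0.50, 56.7-fold, adjusted p = 3.4e-10), and Ifit3 9.04, 11.13 and 9.11 (5.59 ± 0.40, 48.2-fold, adjusted p = 5.8e-12, and 4.69 after adding 16). The array numbered 2 was the highest in each of these groups, as it was for Ifit1 and Ifit3 in mock and IFN gamma. Without the 3 arrays numbered 2 the differences were 6.12 for Ifit1 and 5.13 for Ifit3. Ifit1 was 5.18 without mock array 1 and 6.50 without mock array 2, and Ifit3 4.90 without IFN alpha array 2, all still called. Ifit2 read 9.37, 10.04 and 9.17, at 0.95 ± 0.20 (1.94-fold, adjusted p = 0.0032). That call was lost without mock array 1 (0.61, adjusted p = 0.057), without IFN alpha array 2 (0.70, adjusted p = 0.084) and with only the arrays of the window in the fit (0.95 ± 0.31, adjusted p = 0.78). The arrays varied more in this window than elsewhere, and 1 spread per gene over all windows understates the error here.

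**Figure D3:**
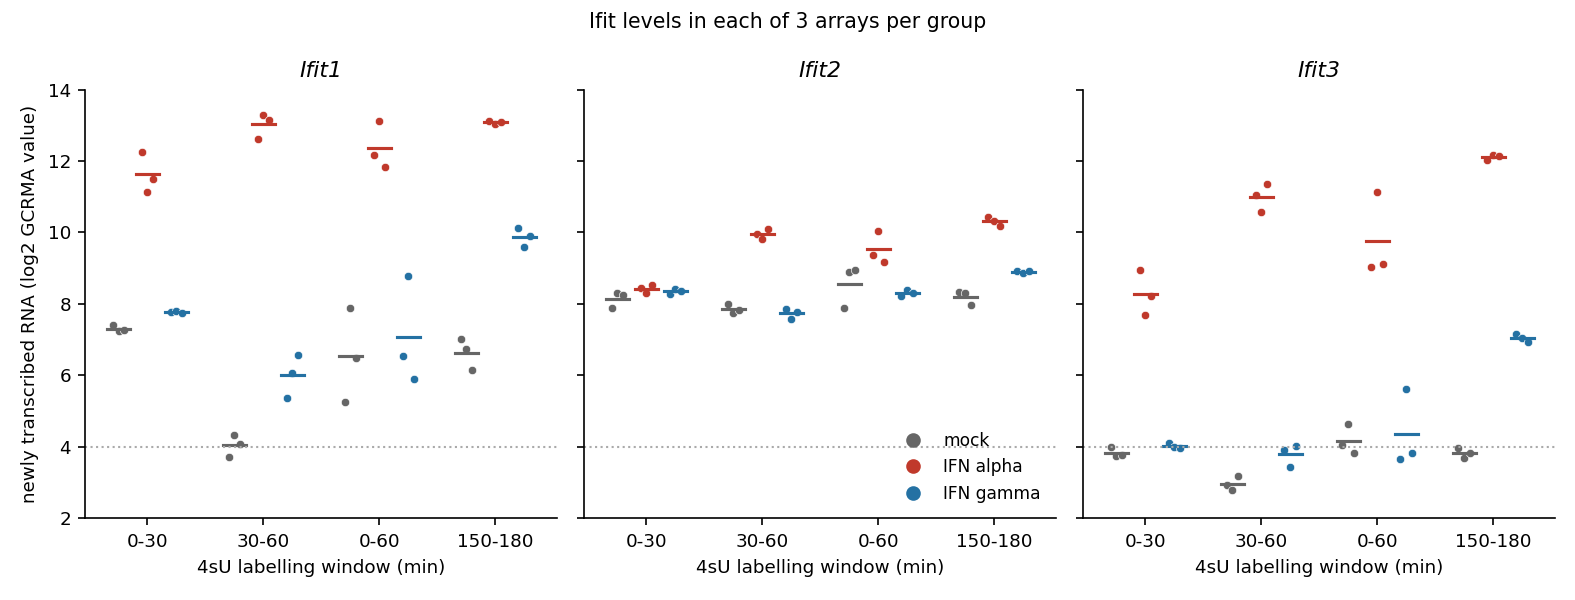
Level of each Ifit gene (log2 GCRMA value) in every array of the 12 groups, with short lines for group means and a dotted line at the log2 4 filter. IFN alpha arrays of Ifit1 and Ifit3 stand above all mock and IFN gamma arrays of their window, whereas Ifit2 groups overlap at 0-30 min.

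The IFN alpha response grew within the first hour. The change of the response, that is the difference from mock at 30-60 min minus that at 0-30 min, was 4.64 ± 0.71 for Ifit1 (adjusted p = 6.8e-05), 3.59 ± 0.57 for Ifit3 (adjusted p = 0.00012) and 1.80 ± 0.28 for Ifit2 (adjusted p = 8.6e-05). After adding 16 it was 3.79 for Ifit1 and 2.99 for Ifit3, both still called. All 3 were called, against 1.27% of genes with a larger later response. For Ifit1 the change held a fall of the mock level by 3.25 and a gain of the IFN alpha level of 1.39 ± 0.50 (adjusted p = 0.017). For Ifit3 the IFN alpha level itself gained 2.71 ± 0.40 (adjusted p = 1.5e-06), and for Ifit2 1.53 ± 0.20 (adjusted p = 1.7e-07), while the median gene fell by 0.51 and 10.0% were called as higher. Ifit1's gain in level was lost without IFN alpha 0-30 min array 2 (1.15, adjusted p = 0.082) or IFN alpha 30-60 min array 2 (1.26, adjusted p = 0.06).

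From 30-60 to 150-180 min no change of the IFN alpha response was called, while 0.429% of genes had a called larger and 0.0419% a called smaller later response. It was -2.53 ± 0.71 for Ifit1 (adjusted p = 0.17), 0.02 ± 0.28 for Ifit2 (adjusted p = 1) and 0.25 ± 0.57 for Ifit3 (adjusted p = 1). The Ifit1 change was called when only the arrays of these windows were fitted (-2.53 ± 0.38, adjusted p = 0.00082), with the replicate block (-2.53 ± 0.40, adjusted p = 0.00058) and with array weights (-2.77 ± 0.46, adjusted p = 0.00015), and was -1.77 and not called after adding 16 to the linear values (adjusted p = 0.5). Over the same step the IFN alpha level of Ifit1 moved by 0.05 ± 0.50 (adjusted p = 0.93), that of Ifit2 by 0.35 ± 0.20 (adjusted p = 0.13) and that of Ifit3 by 1.12 ± 0.40 (adjusted p = 0.017), against a median gene of 0.50 and 50.6% called as higher. The Ifit3 gain was 0.59 and not called with the arrays shifted to a common median (adjusted p = 0.23), and was lost without IFN alpha 30-60 min array 2 (0.92, adjusted p = 0.086).

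With IFN gamma, 150-180 min was the one window in which all 3 genes were called. At 0-30 min Ifit1 read 7.78, 7.81 and 7.74 against 7.40, 7.24 and 7.26 in mock. Its arrays did not overlap with mock, but the difference of 0.48 ± 0.50 was not called (adjusted p = 1). This SE rests on the spread over all windows, while the IFN gamma and mock groups here had SDs of 0.03 and 0.09. No alternative fit called the difference (lowest limma adjusted p 0.68). Ifit2 (8.28, 8.42 and 8.37) and Ifit3 (4.11, 4.00 and 3.97) overlapped with mock, at 0.21 ± 0.20 and 0.19 ± 0.40. None of the 3 was called, against 0.754% of genes as higher.

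At 30-60 min Ifit1 alone was called with IFN gamma, against 3.82% of genes. It read 5.37, 6.07 and 6.58 against 3.72, 4.34 and 4.09, a difference of 1.96 ± 0.50 (3.88-fold, adjusted p = 0.012). Each IFN gamma array lay above each mock array, yet the level was lower than at 0-30 min (-1.77 ± 0.50, adjusted p = 0.0029, or -1.20 with a common median). The call was lost without mock array 1 (1.79, adjusted p = 0.061), without IFN gamma array 3 (1.67, adjusted p = 0.09) and after adding 16 to the linear values (1.31, adjusted p = 0.095). Ifit3 read 3.92, 3.43 and 4.01, above 2.93, 2.78 and 3.17 but around the filter, and its 0.83 ± 0.40 was not called (adjusted p = 0.34). With the array number as a replicate block it was (0.83 ± 0.22, adjusted p = 0.011). Ifit2 read 7.87, 7.57 and 7.78, within the mock range or below (-0.13 ± 0.20, adjusted p = 0.9).

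At 150-180 min all 3 genes were called as higher with IFN gamma, against 4.37% of genes. Ifit1 read 10.12, 9.60 and 9.89 against 7.03, 6.74 and 6.14, at 3.23 ± 0.50 (9.41-fold, adjusted p = 1.8e-05). Ifit3 read 7.16, 7.04 and 6.94 against 3.97, 3.69 and 3.83, at 3.22 ± 0.40 (9.31-fold over background, adjusted p = 3.8e-07, and 2.30 after adding 16). Ifit2 read 8.92, 8.86 and 8.91 against 8.33, 8.30 and 7.96, at 0.70 ± 0.20 (1.63-fold, adjusted p = 0.026), with no overlap. This last call did not survive leaving out mock array 2 (0.75, adjusted p = 0.05) or 3 (0.59, adjusted p = 0.15), or any 1 of the 3 IFN gamma arrays (0.69 to 0.72, adjusted p = 0.069 to 0.093). Over the 0-60 min window none was called, against 3.83% of genes as higher and 2.90% as lower, with 0.53 ± 0.50 for Ifit1, -0.26 ± 0.20 for Ifit2 and 0.20 ± 0.40 for Ifit3. Leaving out 1 array turned the sign of the first and the last (Ifit1 -0.11 without mock array 1 and -0.32 without IFN gamma array 2, Ifit3 -0.42 without IFN gamma array 2). There Ifit1 read 6.54, 8.79 and 5.91, Ifit2 8.22, 8.39 and 8.32, and Ifit3 3.67, 5.62 and 3.83. Without mock array 1, which stood apart, Ifit2 was called as lower (-0.61, adjusted p = 0.027).

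The change of the IFN gamma response from 30-60 to 150-180 min was called for Ifit3 (2.39 ± 0.57, adjusted p = 0.015) and not for Ifit1 (1.28 ± 0.71, adjusted p = 0.67) or Ifit2 (0.83 ± 0.28, adjusted p = 0.18), against 1.20% of genes. For Ifit3 it was lost without mock 30-60 min array 3 (2.29, adjusted p = 0.051) or IFN gamma 30-60 min array 2 (2.22, adjusted p = 0.054). For Ifit2 it was called with only these windows' arrays (0.83 ± 0.17, adjusted p = 0.0082). The IFN gamma level itself gained 3.86 ± 0.50 for Ifit1 (adjusted p = 1.3e-07), 3.26 ± 0.40 for Ifit3 (adjusted p = 5.8e-08) and 1.15 ± 0.20 for Ifit2 (adjusted p = 1.1e-05) over this step, beside a median gene of 0.53 and 52.6% called as higher. With the arrays shifted to a common median the gains were 3.31, 2.71 and 0.60, and after adding 16 that of Ifit3 was 2.31. Between 0-30 and 30-60 min no change of the response was called (Ifit1 1.47 ± 0.71, adjusted p = 0.73; Ifit2 -0.34 ± 0.28; Ifit3 0.64 ± 0.57), against 1.27% of genes. With the replicate block that of Ifit1 was called (1.47 ± 0.40, adjusted p = 0.04). In level, 52.9% of genes were called as lower and 10.0% as higher at 30-60 than at 0-30 min with IFN gamma, and Ifit2 fell by 0.61 (adjusted p = 0.0084), close to the median gene at -0.53 (-0.04 with a common median).

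**Figure D4:**
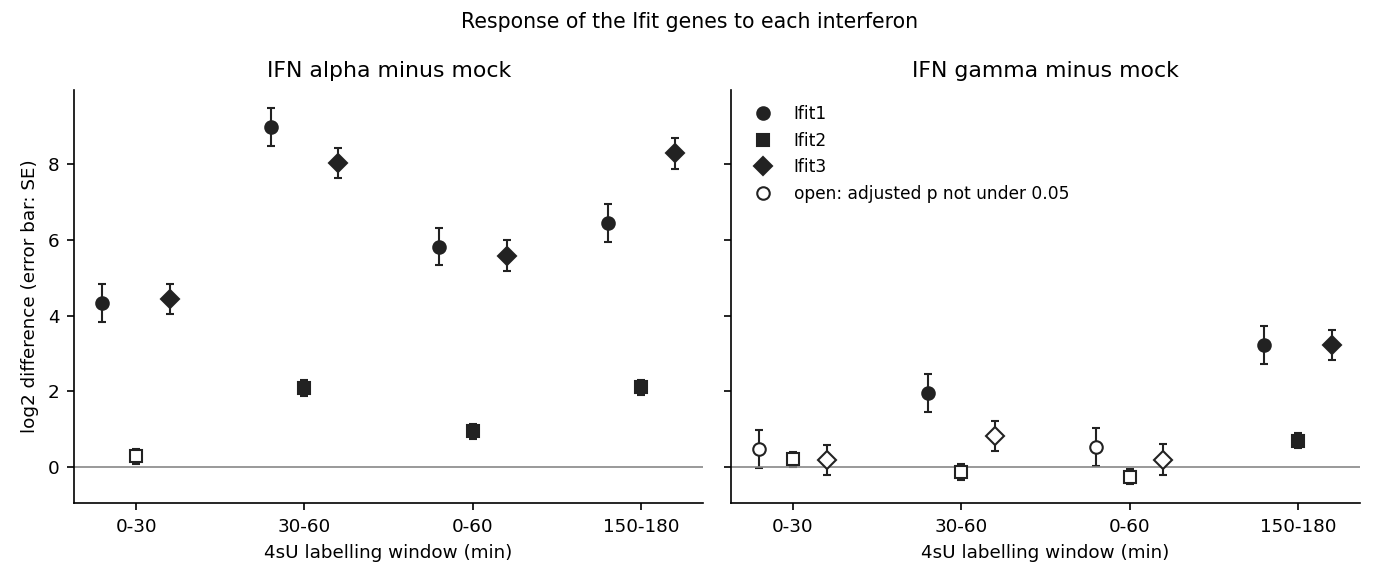
Difference of each interferon from mock (log2, error bars SE, n = 3 arrays per group) for the 3 Ifit genes in 4 labelling windows; open symbols did not pass an adjusted p of 0.05. With IFN alpha, Ifit1 and Ifit3 lie between 4.34 and 8.98 and Ifit2 between 0.29 and 2.11, and the one window with all 3 called for IFN gamma is 150-180 min.

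Set directly against each other, IFN alpha gave the higher level of Ifit1 and Ifit3 in every window. At 0-30 min Ifit3 stood 4.26 ± 0.40 higher with IFN alpha than with IFN gamma (19.2-fold over background, adjusted p = 1.7e-08) and Ifit1 3.85 ± 0.50 (14.5-fold, adjusted p = 9.6e-06), ranks 1 and 2 of 9549 genes, while Ifit2 did not pass (0.08 ± 0.20, adjusted p = 1). The background was 0.189% of genes called as higher with IFN alpha. Up to 60 min the IFN gamma arrays of Ifit3 lay around the filter (3.43 to 4.11 in the 30 min windows and 3.67 to 5.62 over 0-60 min), so its folds there have no measured level below them, and they were smaller after adding 16 (3.35 at 0-30, 6.10 at 30-60 and 4.53 at 0-60 min). At 30-60 min the differences were 7.21 for Ifit3 (adjusted p = 7.5e-14), 7.02 for Ifit1 (adjusted p = 6.5e-12) and 2.22 for Ifit2 (adjusted p = 6.9e-10), against 2.97% of genes. At 150-180 min they were 5.07 for Ifit3 (33.6-fold, adjusted p = 3e-11), 3.21 for Ifit1 (9.26-fold, adjusted p = 2.6e-05) and 1.41 for Ifit2 (2.66-fold, adjusted p = 4.3e-06), against 1.90%. Over 0-60 min they were 5.39, 5.29 and 1.22 in the same order, all called, against 2.36%. There Ifit3 was 4.70 without IFN alpha array 2 and 6.01 without IFN gamma array 2, and Ifit1 6.15 without the latter, all still called. The Ifit2 call at 0-60 min was lost with only that window's arrays (1.22 ± 0.31, adjusted p = 0.17).

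Ordered by group mean, Ifit1 ran from IFN alpha at 150-180 min (13.08) through the other 3 IFN alpha groups and IFN gamma at 150-180 min (9.87) to mock at 30-60 min (4.05). The 4 IFN alpha groups overlapped with their neighbours in this order and stood clear of the rest. Of the 11 neighbouring pairs, 7 overlapped for Ifit1, 9 for Ifit2 and 6 for Ifit3. Ifit3 kept the same top 5 groups in the same order, and its IFN gamma group at 150-180 min (7.05) stood clear of the IFN alpha group above it and of the 7 groups below it. For Ifit2, the IFN alpha group at 0-30 min (8.43) lay among the mock and IFN gamma groups. Levels of different windows also carry the shift between windows given above.

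Over the 12 group means, Ifit1 and Ifit3 correlated at r = 0.964, Ifit2 and Ifit3 at 0.934 and Ifit1 and Ifit2 at 0.879. These are descriptions over means that share arrays and windows. The genes with the pattern most like Ifit1 were Ifit3, Pnp (r = 0.943, a purine nucleoside phosphorylase), Ifi35 (0.931), Npc2 (0.930, a lysosomal cholesterol carrier) and Tor3a (0.926, a torsin). Those most like Ifit3 were Tor3a (0.984), Mx2 (0.983, a dynamin-like antiviral GTPase), Gm9706 (0.972), Irf7 (0.969, the transcription factor that sustains type I interferon production) and Rsad2 (0.967, viperin). Those most like Ifit2 were Znfx1 (0.980, a helicase that senses viral RNA), Tor1aip2 (0.978), Gm20559 (0.965), N4bp1 (0.964) and Trim26 (0.963, a ubiquitin ligase).

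Among the further Ifit genes of the cluster, Ifit1bl1, a paralogue of Ifit1, passed the filter through its IFN alpha arrays alone, so its values with IFN alpha are given as a description. It read 2.55, 2.57 and 2.61 in mock at 0-30 min and 4.36, 3.33 and 3.72 with IFN alpha, a difference of 1.23 ± 0.56. At 30-60 min its IFN alpha arrays read 6.42, 6.05 and 6.79 (4.00 ± 0.56 above mock) and at 150-180 min 7.78, 7.70 and 7.51 (5.05 ± 0.56). All its mock means lay under the filter, from 2.42 to 2.61, so these are differences over background. At 0-60 min its IFN alpha arrays read 4.28, 7.65 and 2.72, with array 2 far above the others and a mean difference of 2.37. IFN gamma was not called in any window, with at most 0.57 at 150-180 min (adjusted p = 0.73). Ifit1bl2 has 2 annotated starts, of which the second lies 146 bases from that of Ifit1 on the opposite strand, with 245 bases of the promoter windows shared. It did not pass the filter in either of its 2 probe sets (group means 2.82 to 3.85). Ifit3b was not analysed here, and Ifit3 is uncertain to that extent, since a near-identical copy could share its probes.

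Of 7 neighbours of the cluster, 5 were tested. Lipa, the lysosomal acid lipase, rose with IFN alpha at 30-60 min (8.09, 8.24 and 8.72 against 6.03, 6.08 and 6.64), by 2.10 ± 0.23 (4.27-fold, adjusted p = 4.2e-08). It was called at 0-60 min (0.96, adjusted p = 0.016) and 150-180 min (1.13, adjusted p = 0.0014) as well, and not with IFN gamma, where it stood between -0.01 and 0.22. Fas, the death receptor, had the larger differences with IFN gamma: 1.62 ± 0.21 at 30-60 min (adjusted p = 9.8e-07), 1.20 at 0-60 min and 2.09 at 150-180 min (adjusted p = 4.1e-09), against 0.91 (adjusted p = 0.0078), 0.74 and 0.58 with IFN alpha, of which the first alone was called. IFN alpha was lower than IFN gamma for Fas at 30-60 min (-0.71, adjusted p = 0.04) and 150-180 min (-1.51, adjusted p = 3.9e-06), while at 0-60 min this difference was not called (-0.46, adjusted p = 0.35). Acta2, smooth muscle actin, was called once with IFN gamma (0.91 at 30-60 min, adjusted p = 0.00081). Its kept probe sets did not give the same picture at 0-60 min, where the tested one read means of 12.23 with IFN gamma against 12.17 in mock. Another read 5.25 against 3.83 there, with no overlap, and 7.10 against 5.06 at 30-60 min. The last one lay under the filter at 0-60 min (3.00 against 2.93). Pank1 was called once as lower with IFN gamma (-0.95 at 0-60 min, adjusted p = 4.1e-05). It was also higher with IFN alpha than with IFN gamma there (0.76, adjusted p = 0.0012). Its other kept probe sets had lower means with IFN gamma there (6.52 against 6.86, 4.35 against 4.96 and 3.97 against 4.54). Of these, the pair 4.35 against 4.96 alone did not overlap with mock. Kif20b was not called against mock or between the interferons in any window. Ch25h lay between 2.25 and 2.32 in all groups and, with Slc16a12, was not tested.

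**Figure D5:**
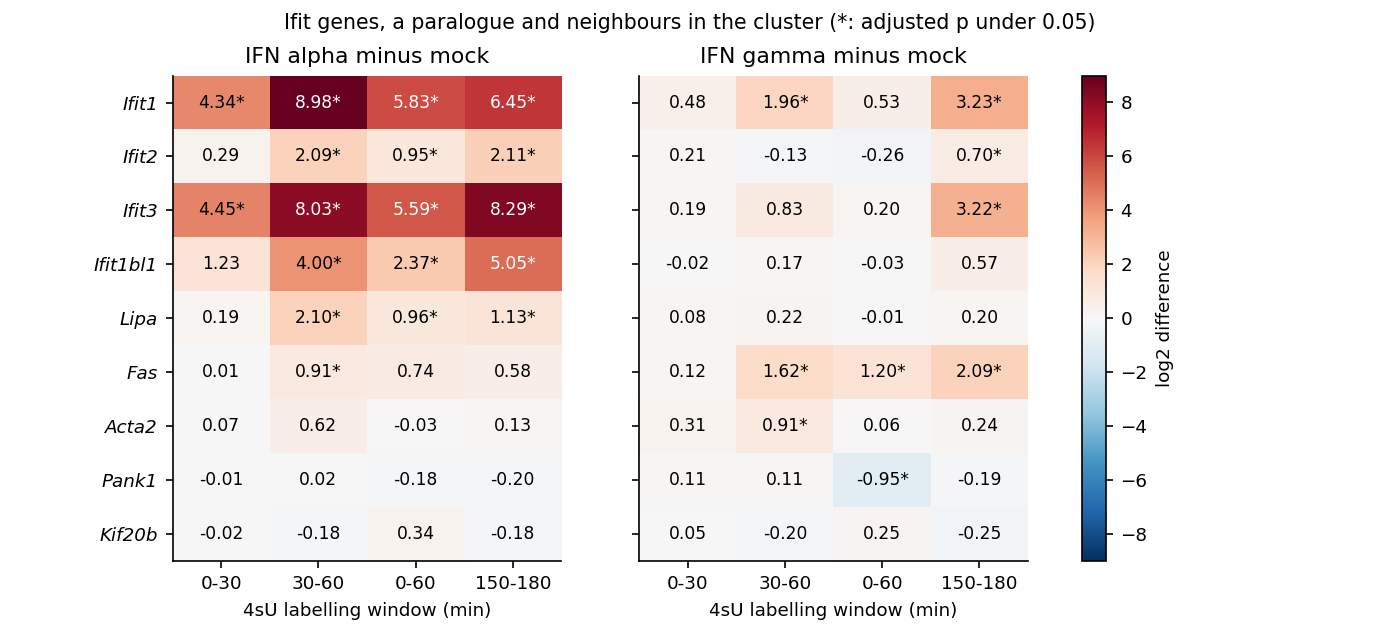
Difference from mock (log2) with IFN alpha and IFN gamma by labelling window for the 3 Ifit genes, the paralogue Ifit1bl1 and 5 neighbouring genes. Asterisks mark an adjusted p under 0.05. Those of Ifit1bl1 with IFN alpha are no test, since it passed the filter through those arrays alone. Those of Ifit3 are a description, since it passed through its interferon arrays. With IFN alpha, Ifit1, Ifit3 and Ifit1bl1 reach 8.98, 8.29 and 5.05, Lipa reaches 2.10, and Fas is larger with IFN gamma (2.09).

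Of 6 tested genes of ISGF3 and type I signalling and 4 of type II signalling, Irf9, Stat2 and Irf1 were called with both interferons. Ifnar2 was called with IFN gamma alone, at 30-60, 0-60 and 150-180 min, and the others with neither. The shares of all genes called as higher were 0.377% to 2.58% with IFN alpha and 0.754% to 4.37% with IFN gamma. Irf9, the DNA-binding subunit of ISGF3, was called in every window with IFN alpha (2.81, 3.74, 3.79 and 4.22 at 0-30, 30-60, 0-60 and 150-180 min, SE 0.17) and with IFN gamma (2.78, 3.24, 3.30 and 3.89), and the interferons did not differ at a called level (0.03 to 0.50, adjusted p from 0.11 to 1). Stat2, its partner, was not called at 0-30 min with IFN alpha or IFN gamma (1.09 and 1.06), though neither group overlapped with mock. Its other kept probe set read means of 4.98 and 4.78 there against 3.43 in mock, also with no overlap. Stat2 was called from 30-60 min on with both (3.93 and 3.04 at 30-60 min, SE 0.42). Its mock arrays at 30-60 min (2.77 to 3.37) were under the filter, so these differences are over background. Irf1 had the larger differences with IFN gamma, 5.14 at 0-30 and 5.08 at 150-180 min (SE 0.19). With IFN alpha they were 2.15 and 1.17 (adjusted p of the difference between the interferons 1.3e-12 and 1.9e-16). At 30-60 min the Irf1 means were 11.22 with IFN alpha and 12.99 with IFN gamma against 7.14 in mock. At 0-60 min they were 11.77 and 13.09 against 8.36. At 0-30 min Irf9 and Irf1 were called with IFN gamma and none of the 3 Ifit genes was, beside 0.754% of all genes. A link between them was not tested.

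Irf7 and Usp18, which takes ISG15 off proteins and limits signalling from the type I receptor, had the following values against the same mock arrays. Irf7 stood 2.02 to 4.09 above mock with IFN alpha over the 4 windows, given as a description. With IFN gamma Irf7 was called at 150-180 min alone (1.36 ± 0.28, adjusted p = 0.0012). All mock arrays of Irf7 (2.48 to 2.80) and Usp18 (2.12 to 3.34) lay under the filter, so their differences are over background. Irf7 passed the filter through its IFN alpha arrays, since with IFN gamma only an array at 150-180 min (4.50) exceeded it. Usp18 passed it with either interferon (6.41 to 6.81 with IFN gamma at 150-180 min) and in no mock array. Its calls against mock are therefore given as a description. Usp18 was called with IFN alpha at 2.16, 6.70, 6.29 and 7.85 (SE 0.50) and with IFN gamma at 150-180 min alone (3.56, adjusted p = 3.3e-06). Socs1, the inhibitor of Janus kinases, had the larger differences with IFN gamma (2.82 to 4.40, all called) than with IFN alpha (1.08 to 1.37, called from 30-60 min on), and the difference between the interferons was called in each window.

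Of 31 other antiviral effectors tested, among them Mx1, Oas1a, Rsad2 and Eif2ak2, IFN alpha raised 14 at 0-30, 25 at 30-60, 25 at 0-60 and 30 at 150-180 min, with medians of 1.01, 3.44, 2.36 and 4.71. The shares of all genes called as higher were 0.377%, 2.40%, 1.91% and 2.58%. IFN gamma raised 5, 15, 13 and 24 (medians 0.18, 0.49, 0.73 and 2.58) and lowered 1 at 0-60 min, beside 0.754%, 3.82%, 3.83% and 4.37% of all genes called as higher. The median of all genes lay between -0.10 and 0.03 in these comparisons. The 9 tested GTPases of the IFN gamma response, such as Igtp, Irgm1 and Gbp2, had 8 members called at 0-30 min with IFN gamma (median 2.49) and 6 with IFN alpha (median 2.25), and all 9 in the other windows with both, beside the same shares of all genes. The ISRE core was in a promoter window of 15 of 26 of the antiviral effectors with a window and 8 of 9 of the GTPases, beside 9.76% of all genes. The GAS pattern was in 8 and 5 of them, beside 9.55%.

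Of 15 tested partners of IFIT proteins, mostly eIF3 subunits, Sting1, an adaptor of DNA sensing, alone was called, with IFN alpha at 30-60 min and with IFN gamma in all 4 windows, and the list's medians stayed between -0.08 and 0.01. A share of 1 in 15 is near that of all genes called in the later windows. Of 4 tested enzymes that build and methylate the cap, Cmtr1, which adds the 2'-O methyl group to the cap-adjacent nucleotide, was called with IFN alpha at 30-60, 0-60 and 150-180 min and with IFN gamma at 150-180 min. The shares of all genes called as higher there were 2.40%, 1.91%, 2.58% and 4.37%. The other 3 enzymes were not called (list medians -0.21 to 0.58).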

How the data were processed

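The values were read from the deposited table of log2 values, which the authors made with GCRMA per the submitters' processing notes. Its version and the genome build are not given in the sources used here. Gene symbols came from the array's annotation, where 34945 probe sets had 1 symbol, 932 several and 9160 none. The 64 control probe sets were not used. Probe sets above log2 4 in at least 3 arrays were kept, and where a gene had several, the one with the highest mean stood for it, giving 9549 genes.

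With limma 3.58.1 under R 4.3.3, a mean was fitted for each of 12 groups by lmFit, followed by eBayes with an intensity trend (24 residual and 6.8 prior degrees of freedom) and 24 contrasts. The precision is limited by 3 arrays per group, since arrays give no counts. The fit was tested on simulated data. RefSeq promoter windows were searched in Python 3.11.15 and aligned with biopython 1.88.

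The members, gene lists and comparisons were chosen with earlier results of these data known. Named genes were the 3 members, the measured paralogues and neighbours, a panel of Stat2, Irf9, Irf1, Irf7, Usp18 and Socs1 (1 further gene of the panel is not reported here), and the 5 genes most correlated with each member over the 12 group means. Sting1, Cmtr1, Ifnar2 and the examples of the lists were named after their values were seen.

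Same-numbered arrays of a window deviated together (r above 0.1) in 9 of 9 pairs at 0-30, 30-60 and 0-60 min. At 150-180 min 7 of 9 did, with a lowest r of -0.29. From this check of the data alone, the number appeared to pair arrays in the first 3 windows. The main fit did not use this pairing, and its p-values treat the arrays as unpaired. The number entered only as the replicate block among the alternatives, which was also applied to comparisons at 150-180 min.

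The alternatives changed the filter (none, or log2 6), the scale (16 added before log2, quantile normalization, medians made equal), the probe sets (all that were kept), the arrays fitted (those of the compared windows alone, or without each array in turn) and the model (no trend, weighted arrays, or array number as a replicate block). Leaving out the 3 arrays numbered 1 or 2 at 0-60 min was chosen after seeing the data.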

Additional observations from a re-analysis of the deposited data

Results flagged for a closer look

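The response to IFN alpha differed between the 0-30 and 30-60 min windows for all 3 genes by a test of the difference itself, in which it was larger later by 4.64 for Ifit1, 1.80 for Ifit2 and 3.59 for Ifit3 (log2, limma adjusted p = 6.8e-05, 8.6e-05 and 0.00012). The response of Ifit3 to IFN gamma differed between 30-60 and 150-180 min, larger later by 2.39 (adjusted p = 0.015). The mock level changed between these windows as well, so part of each value lies in the mock arrays. The Ifit3 values are a description, since Ifit3 passed the filter through its interferon arrays.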

How the results depend on the processing

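Of 72 results for the 3 genes, 51 stayed on their side of the threshold under every alternative, and no called value turned its direction. Settings other than leaving out an array changed 25 of 720 calls, and leaving out an array 17 of 504; the cause of these changes was not tested. Fitted on the compared windows' own arrays, Ifit2 at 0-60 min lost its calls for IFN alpha (0.95, adjusted p = 0.78) and for IFN alpha against IFN gamma (1.22, adjusted p = 0.17). The changes of the response from 30-60 to 150-180 min gained calls for Ifit1 with IFN alpha (-2.53) and Ifit2 with IFN gamma (0.83), as did the mock steps of Ifit3 (-0.88 and 0.87), Ifit2 (0.33) and Ifit1 from 0-30 to 150-180 min (-0.66), and the late step of Ifit2 with IFN alpha (0.35). Array weights gave calls to Ifit1's response changes (-2.77 with IFN alpha late, 1.73 with IFN gamma early), Ifit2's with IFN gamma (0.69), and the mock steps of Ifit2 (-0.38, 0.42 and 0.65) and Ifit3 (-0.73 and 0.75). The replicate block gave calls to Ifit3 with IFN gamma at 30-60 min (0.83) and to the response changes of Ifit1 (-2.53 and 1.47) and Ifit2 (0.83), and changed no other call of a member.

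Adding 16 lost Ifit1 with IFN gamma at 30-60 min (1.31), no filter lost Ifit2 with IFN gamma at 150-180 min (0.70, adjusted p = 0.051), and a common median lost the level steps of Ifit3 with IFN alpha (0.59) and Ifit2 with IFN gamma (-0.04). Without the arrays numbered 1 at 0-60 min, Ifit2 with IFN alpha was 0.69 (adjusted p = 0.05) and its mock step 0.77; without those numbered 2, the mock step of Ifit1 was -1.42. Leaving out 1 array gave 0.61 to 1.14 for Ifit2 with IFN alpha at 0-60 min, 1.67 to 2.28 for Ifit1 with IFN gamma at 30-60 min, -0.61 to -0.08 and 0.59 to 0.77 for Ifit2 with IFN gamma at 0-60 and 150-180 min, and 2.22 to 2.50 for the IFN gamma change of Ifit3. It gave -1.42 to -0.11 and 0.24 to 0.77 for the 0-60 min mock steps of Ifit1 and Ifit2, and 1.15 to 1.71 and 0.92 to 1.30 for the IFN alpha steps of Ifit1 and Ifit3.

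Counts of all genes called depend far more on the setting. For IFN alpha against mock the 36, 247, 189 and 257 genes (0-30, 30-60, 0-60 and 150-180 min) ranged over 25 to 74, 195 to 766, 63 to 803 and 220 to 3025, and for IFN gamma the 76, 562, 643 and 564 over 47 to 189, 450 to 1161, 120 to 1949 and 395 to 3772. For IFN alpha against IFN gamma the 68, 544, 383 and 448 ranged over 43 to 196, 428 to 1075, 76 to 912 and 343 to 1175. With the replicate block they were 47, 508, 459 and 445 for IFN alpha, 125, 1161, 1949 and 1136 for IFN gamma, and 117, 986, 912 and 725 between the interferons. The highest came from array weights or the block in 6 of the 8 comparisons with mock. Without mock 0-60 min array 2 the IFN alpha count at 0-60 min was 803. The 74 for IFN alpha at 0-30 min came from the fit of all kept probe sets, so it counts probe sets and not genes. Signal over background limits the size of folds taken against levels around or under the filter, such as mock Ifit3, Ifit1bl1, Irf7 and Usp18 and, at 30-60 min, mock Ifit1 and Stat2.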
